A study of Sus scrofa with 5 samples.

Results

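The miRNAs miR-10a, miR-10b, miR-196a and miR-196b, which are encoded within the Hox gene clusters, were followed by small RNA sequencing through blastocysts of the pig (BL_1 and BL_2), embryonic stem cell-like (ES-like) cells, embryoid bodies (PEBs) and fetal fibroblasts (PFFs). Members were chosen by name, as every mature miRNA called ssc-miR-10a, ssc-miR-10b, ssc-miR-196a or ssc-miR-196b with or without an arm ending. This gave 6 of the 411 mature names in the table of reported miRNAs, namely ssc-miR-10a-5p, ssc-miR-10a-3p, ssc-miR-10b, ssc-miR-196a, ssc-miR-196b-5p and ssc-miR-196b-3p. They stood on 9 of the 493 rows, in which each mature miRNA is listed once per precursor hairpin, and all 6 had a read in at least 2 libraries. BLs were pools of day 7 embryos made by parthenogenetic activation, that is, from oocytes activated by an electric pulse without sperm. ES-like cells were a line derived from expanded blastocysts and grown on mouse embryonic fibroblast feeder cells with stem cell factor and basic fibroblast growth factor. PEBs were clumps of ES-like colonies detached from the feeders and cultured in hanging drops without these cytokines. PFFs were grown from mixed-breed fetuses from which the head, limbs and internal organs had been removed. BLs had 2 libraries. The other cell types had 1 each, so a difference among these 3 cultured libraries has no replicate check.

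The Hox genes are transcription factors that set position along the body axis, and their clusters also hold hairpins of a few miRNAs. miR-10a and miR-10b have the same seed, the stretch near the 5′ end that pairs with target mRNAs, and differ by a single internal base. The same holds for miR-196a and miR-196b, and miR-196 is known to repress HOXB8 and other Hox mRNAs. In the RefSeq annotation of assembly Sscrofa11.1, used here for gene order only because the files are on an earlier build, 4 of the 6 precursors of these miRNAs were found. MIR10A lay on chromosome 12 between HOXB3 and HOXB5, and MIR196A-1 on the same chromosome between HOXB8 and HOXB13. MIR10B lay on chromosome 15 between HOXD8 and HOXD3, and MIR196A-2 on chromosome 5 between HOXC10 and HOXC9. None of the 4 lay within a protein-coding gene. The precursors ssc-mir-196b-1 and ssc-mir-196b-2 had no entry under their names.

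Levels are given as raw reads and as reads per 1000000 mature miRNA reads of the library (RPM), with reads summed over precursor rows. Library totals ran from 113743 reads in BL_1 to 27071931 in PFFs. A read summary in the study's supplement lists the totals of the ES-like and PFF libraries the other way round. The columns were assigned here by their names, which match the sample titles, and if these names were exchanged, so would be every ES-like and PFF value given here. A miRNA without a read could still be present at up to 26.4 RPM in BL_1, 1.08 in BL_2 and 0.111 in PFFs, the level of 3 reads. These intervals and limits cover counting error only, since reads of amplified libraries are not independent molecules. Marker miRNAs were measured as a check of the labels, this conflict included. The summed level of 4 miRNAs of the early embryo (ssc-miR-371-5p, ssc-miR-363, ssc-miR-20b and ssc-miR-106a) was 325172 and 296564 RPM in BLs, 335 in PFFs, 13010 in PEBs and 51811 in ES-like cells. In BLs nearly all of it was ssc-miR-371-5p, at 324635 and 296148 RPM against 0.185 in PFFs, 0.505 in PEBs and 30.9 in ES-like cells. The other 3 went the other way, with all 3 highest in ES-like cells (ssc-miR-363 at 41258 RPM, against 422 and 331 in BLs), so the sum does not check BLs and ES-like cells by the same miRNAs. That of 5 mesenchymal miRNAs was 38789 and 70165 RPM in BLs, 680039 in PFFs, 288182 in PEBs and 195233 in ES-like cells, with ssc-miR-145-5p and ssc-miR-214 at 0 in BL_1. ssc-miR-21 made up most of it in PFFs at 522808 RPM, and ssc-miR-199a-3p and ssc-miR-214 were highest in PEBs. Of the cultured libraries, the column named for PFFs thus had the lowest level of each of the 4 embryo miRNAs and the highest of 3 of the 5 mesenchymal ones, and the column named for ES-like cells had the highest level of each embryo miRNA. ssc-miR-122, the main miRNA of hepatocytes, stood at 101004 RPM in ES-like cells and at 54096 in the PEBs, against 4.14 in PFFs and 1767 and 837 in BLs. The part of these other cell type signals in the results below was not tested. Nor was the part of any RNA from the mouse feeder cells in the ES-like library. In such bulk samples fewer cells of a type and less RNA per cell cannot be told apart.

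**Figure D1:**
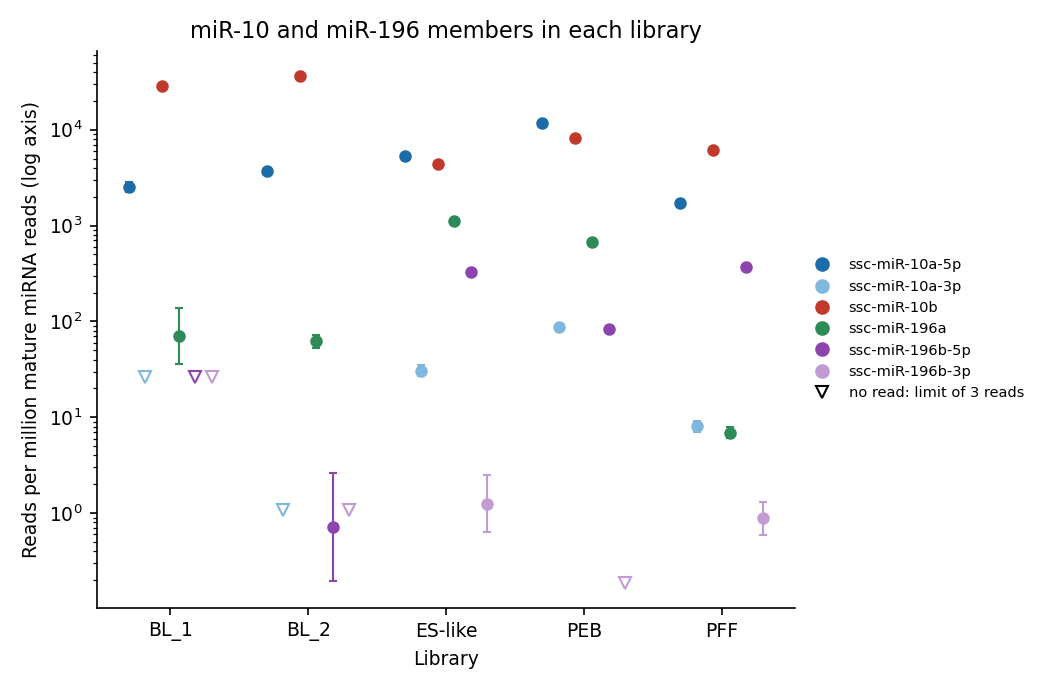
Level of each of the 6 members in the 5 libraries in RPM (log axis), with 95% Wilson intervals as bars and open triangles at the level of 3 reads where no read was counted. ssc-miR-10b was the highest member in both BL libraries at 28485 and 36027 RPM, and ssc-miR-196a was at 6.94 RPM in PFFs against 1117 in ES-like cells.

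miR-10b was the most abundant member of BLs. Its reads numbered 3240 in BL_1 and 100233 in BL_2, with 168116 in PFFs, 130148 in PEBs and 27971 in ES-like cells. Relative to depth this was 28485 RPM (95% Wilson interval 27534 to 29468) in BL_1 and 36027 RPM (35809 to 36247) in BL_2, or 32256 ± 5333 RPM (SD, n = 2). The 2 BL libraries of miR-10b differed by more than counting error and by less than their distance from any cultured library. The cultured libraries were lower, with 6210 RPM in PFFs, 8211 in PEBs and 4389 in ES-like cells. Both BL libraries thus lay above all 3 cultured libraries, as they did for 21.0% of the 295 miRNAs that were tested across libraries. By rank, ssc-miR-10b was the 8th and 7th most abundant of the reported miRNAs in BL_1 and BL_2 and made up 2.85% and 3.60% of their mature miRNA reads. It was the 40th in ES-like cells, the 27th in PEBs and the 19th in PFFs. On RPM its mean level in BLs was 3.93 times that in PEBs, the next cell type, and 7.35 times that in ES-like cells, the lowest. With edgeR's TMM factors, which scale libraries on the bulk of the miRNAs instead of the total, PFFs at 10173 took the second place from PEBs at 7739, and BLs were 3.24 times as high as PFFs. The order of PEBs and PFFs for miR-10b therefore depended on the normalization. On RPM and on TMM values alike, BLs lay above and ES-like cells below both of them. Both scales are relative to mature miRNA reads. The paper reports miRNAs as a much smaller part of all small RNAs in BLs than in the cultured samples. Levels relative to all small RNAs were not computed, so the place of BLs on that basis is not shown.

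miR-10a followed another order, with its highest level in PEBs. Its main arm, ssc-miR-10a-5p, had 286 reads in BL_1, 10307 in BL_2, 46600 in PFFs, 187414 in PEBs and 34011 in ES-like cells. These were 2514 and 3705 RPM in BLs (mean 3110 ± 842, SD, n = 2), 1721 in PFFs, 11824 in PEBs and 5337 in ES-like cells. BLs lay within the range of the cultured libraries. PEBs were made from ES-like cells, and their level of ssc-miR-10a-5p was 2.22 times that of ES-like cells (95% exact interval 2.19 to 2.24, counting error only) on RPM and 3.28 times on TMM values. For miR-10b the same pair of libraries differed by 1.87 times (1.85 to 1.90) on RPM and 2.77 times on TMM values, so both miR-10 genes were higher in PEBs than in their source cells. PEBs were also 6.87 times as high as PFFs for ssc-miR-10a-5p on RPM and 3.95 times on TMM values. Below PEBs the order was less firm. On RPM it ran from ES-like cells over BLs to PFFs, whereas on TMM values ES-like cells at 3394 lay between BL_2 at 4061 and BL_1 at 2336, and PFFs at 2820 lay above BL_1.

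The ratio of miR-10a to miR-10b within a library does not depend on the normalization between libraries. In BLs, reads of ssc-miR-10a-5p were 8.11% of those of both miRNAs in BL_1 (286 of 3526, 95% Wilson interval 7.25 to 9.06%) and 9.32% in BL_2 (10307 of 110540, 9.15 to 9.50%). miR-10b was thus 11.3 and 9.72 times as abundant as miR-10a there. The intervals of the BL replicates did not overlap, which means that they differed by more than counting error, by an SD of 0.858 percentage points. In ES-like cells the share was 54.9% (54.5 to 55.3%) and in PEBs 59.0% (58.8 to 59.2%), so miR-10a was the more abundant of the pair in both, by 1.22 and 1.44 times. In PFFs the share was 21.7% (21.5 to 21.9%), and miR-10b was 3.61 times as abundant as miR-10a. PFFs therefore lay between BLs and the ES-like cells with their PEBs, on the side of miR-10b. On the log2 scale the ratio of miR-10a to miR-10b was -3.50 and -3.28 in BLs, -1.85 in PFFs, 0.53 in PEBs and 0.28 in ES-like cells. The mean of BLs was -3.39 ± 0.16 (SD, n = 2) and that of the cultured libraries -0.35 ± 1.31 (SD, n = 3), a difference of -3.04, or an 8.25-fold lower ratio in BLs. The groups did not overlap. Such a lack of overlap was common among single miRNAs on RPM. Both BL libraries lay above all 3 cultured libraries for 21.0% of the 295 tested and below them for 40.3%. The same share over ratios of other miRNA pairs was not computed. The exact permutation test (two-sided, 2 against 3 libraries) gave p = 0.2. This is the one-sided p of 0.1 doubled, and the smallest value that doubling allows. Counted by the absolute difference, 2 of the 10 splits were as large or larger, which also gives an exact p = 0.2, where 0.1 is the smallest possible. The cultured libraries are of different cell types, so their SD is not an error of repeated cultures.

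Because both miRNAs differ by a single internal base and the authors' handling of mismatched reads is not given in the sources used here, the sum of the pair was also taken, which does not change if reads of one were counted for the other. ssc-miR-10a-5p and ssc-miR-10b together made up 3.10% and 3.97% of the mature miRNA reads of BLs, 0.793% in PFFs, 2.00% in PEBs and 0.973% in ES-like cells. The sum was 30999.7 and 39732 RPM in BLs (mean 35366 ± 6175, SD, n = 2), against 7931 in PFFs, 20036 in PEBs and 9726 in ES-like cells. Relative to mature miRNA reads, BLs again lay above all cultured libraries, with PEBs nearest to them. On TMM values the order of BLs, PEBs and the others stayed, at 28799 and 43555 in BLs and 18882 in PEBs, but PFFs at 12993 lay above ES-like cells at 6186.

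**Figure D2:**
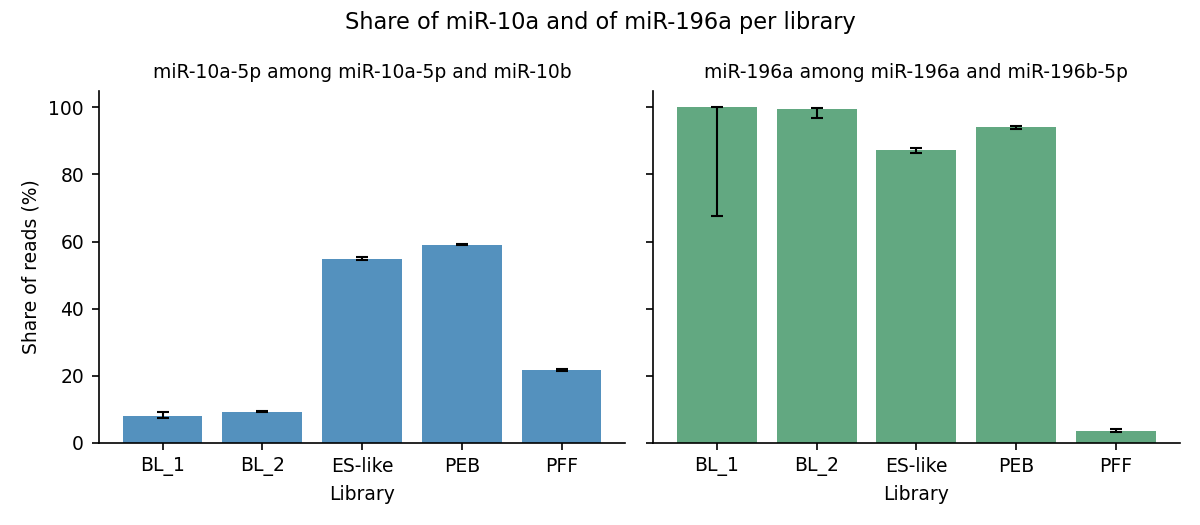
Share of reads (%) of miR-10a-5p among miR-10a-5p and miR-10b (left) and of miR-196a among miR-196a and miR-196b-5p (right, reads of miR-196b counted at 1 precursor) in each library, with 95% Wilson intervals as bars. miR-10a took 8.11% and 9.32% in BLs against 54.9% in ES-like cells with 59.0% in PEBs, and miR-196a took 3.64% in PFFs against at least 87.2% in the other libraries.

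The passenger arm of miR-10a, ssc-miR-10a-3p, is the strand of the hairpin that is mostly degraded. It had no read in BL_1 or BL_2, 219 reads in PFFs, 1380 in PEBs and 196 in ES-like cells. This was 8.09 RPM in PFFs, 87.1 in PEBs and 30.8 in ES-like cells. Against a limit of 3 reads over both BL libraries together, 1.04 RPM, it was at least 29.7-fold higher in ES-like cells, at least 84.0-fold higher in PEBs and at least 7.81-fold higher in PFFs. These bounds rest on the depth of BL_2. Against 3 reads in BL_1 alone they were 3.30 in PEBs and 1.17 in ES-like cells, and no bound above 1 was left for PFFs. The exact intervals against both BL libraries had lower limits of 23.9, 68.3 and 6.30 times, in the order ES-like cells, PEBs, PFFs. As a share of both arms, 3p reads were 0.573% in ES-like cells (95% Wilson interval 0.498 to 0.659%), 0.731% in PEBs (0.694 to 0.770%) and 0.468% in PFFs (0.410 to 0.534%). The share of PEBs lay above those of the other cultured libraries, whose intervals overlapped. In BL_2, 0 of 10307 reads allows a share of up to 0.0291%, below each of the cultured libraries, although the 5p arm was present there at 3705 RPM. In BL_1, 0 of 286 reads allows up to 1.05%, so a share like that of the cultured libraries was not detectable at this depth. The same share over the 73 miRNAs with both arms in the table and at least 100 reads had a median from 24.4% in PEBs to 37.8% in BL_2. 11 of the 71 such miRNAs with a read in ES-like cells, 14 of the 73 in PEBs and 12 of the 73 in PFFs had a lower 3p share than miR-10a.

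miR-196a had its highest levels in ES-like cells and PEBs and its lowest in PFFs. It had 8 reads in BL_1, 172 in BL_2, 188 in PFFs, 10557 in PEBs and 7117 in ES-like cells. These were 70.3 RPM (95% Wilson interval 35.6 to 139) and 61.8 RPM (53.2 to 71.8) in BLs, 1117 in ES-like cells, 666 in PEBs and 6.94 (6.02 to 8.01) in PFFs. The BL libraries differed by less than their counting error, and both lay between PFFs and the ES-like cells and PEBs. Between single libraries, ES-like cells were 161 times as high as PFFs (95% exact interval 139 to 187) on RPM and 62.4 times on TMM values, and PEBs were 95.9 times as high (83.0 to 111) and 55.2 times. Opposite to both arms of miR-10a and to miR-10b, miR-196a was lower in PEBs than in ES-like cells, at 0.596 times on RPM and 0.884 times on TMM values. That gap was the smallest between neighbours in the order of miR-196a on TMM values, apart from the BL replicates, and has no replicate check.

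The hairpins of miR-196a are in the HoxB and HoxC clusters and give the same mature miRNA. The row of ssc-mir-196a-1 held 2 of 8 reads in BL_1, 26 of 172 in BL_2, 1490 of 7117 in ES-like cells, 2474 of 10557 in PEBs and 34 of 188 in PFFs. This was 25.0%, 15.1%, 20.9%, 23.4% and 18.1% of the reads. The rest stood on the row of ssc-mir-196a-2, which was the larger in every library. The intervals of ES-like cells (20.0 to 21.9%) and PEBs (22.6 to 24.3%) did not overlap, while those of BL_1 (7.15 to 59.1%), BL_2 (10.5 to 21.2%) and PFFs (13.2 to 24.2%) each overlapped that of ES-like cells. The files do not show how reads that match both hairpins were assigned, so these shares are of counted reads and not of transcription of each cluster.

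miR-196b was nearly absent from BLs and present in all cultured libraries. Its rows for ssc-mir-196b-1 and ssc-mir-196b-2 held identical counts in every library, as did the rows of 27 of the 58 miRNAs with several precursor rows and a read, so the same reads may have been counted at both. Summed over both rows, ssc-miR-196b-5p had 0 reads in BL_1, 2 in BL_2, 9956 in PFFs, 1330 in PEBs and 2096 in ES-like cells. This was 0.719 RPM in BL_2, 368 in PFFs, 83.9 in PEBs and 329 in ES-like cells, and with each read counted at 1 hairpin it was 0.359, 184, 42.0 and 164 RPM in the same order. Ratios between libraries are the same either way, and their intervals below use the reads of 1 hairpin. Counted once, BLs together had 1 read in 2895893. Against this, the level was 476 times as high in ES-like cells (95% exact interval 85.3 to 18828), 122 times as high in PEBs (21.7 to 4806) and 532 times as high in PFFs (95.5 to 21037). These ratios rest on the depth of BL_2. Against 3 reads in BL_1 alone, the level summed over both rows was at least 12.5 times as high in ES-like cells. It was at least 3.18 times as high in PEBs and 13.9 times in PFFs, and each bound is lower with reads counted once. Among the cultured libraries, ES-like cells were 3.92 times as high as PEBs (3.55 to 4.33) and PFFs 4.38 times as high as PEBs (4.04 to 4.76) on RPM, against 2.65 and 7.62 times on TMM values. PFFs and ES-like cells differed by 1.12 times (1.05 to 1.20) on RPM but by 2.88 times on TMM values. The other arm, ssc-miR-196b-3p, had 8 reads in ES-like cells, 24 in PFFs and 0 in the other libraries, which is too few to order them.

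Within libraries, the pair of miR-196a and miR-196b separated PFFs from the others. Counted at 1 hairpin for miR-196b, miR-196a made up 172 of 173 reads in BL_2 (99.4%, 95% Wilson interval 96.8 to 99.9%), 87.2% in ES-like cells (86.4 to 87.9%) and 94.1% in PEBs (93.6 to 94.5%). In BL_1 it was 8 of 8 reads (67.6 to 100%). In PFFs it was 3.64% (3.16 to 4.19%), so that miR-196b was 26.5 times as abundant as miR-196a. With both rows of miR-196b summed, the shares were 98.9% in BL_2, 1.85% in PFFs, 88.8% in PEBs and 77.2% in ES-like cells. miR-196a was the more abundant of the pair in every library but PFFs under either count.

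The shift of scale between normalizations touches each of these levels alike. Relative to PFFs and to RPM, TMM lowered every miRNA by 0.82 and 0.58 on the log2 scale in BL_1 and BL_2, by 1.37 in ES-like cells and by 0.80 in PEBs. DESeq2's size factors lowered them by 0.30, 0.43, 1.02 and 0.99. Shares within a library, such as that of miR-10a in both miR-10 miRNAs, have the same value under each of them.

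**Figure D3:**
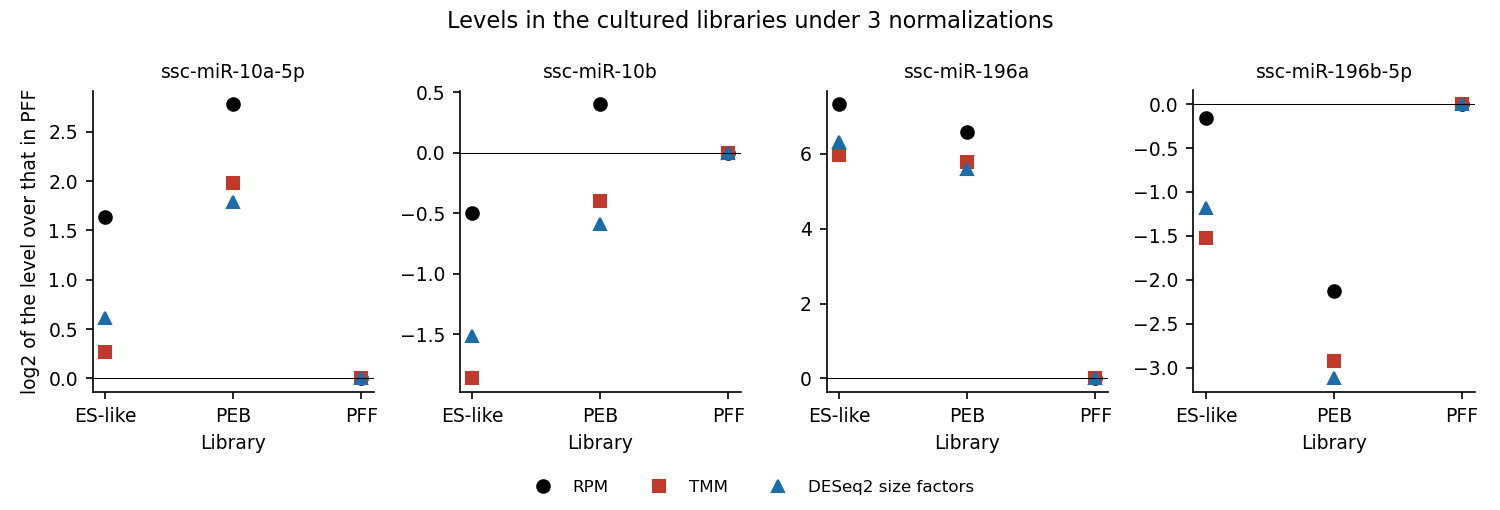
Levels of ssc-miR-10a-5p, ssc-miR-10b, ssc-miR-196a and ssc-miR-196b-5p in the cultured libraries as log2 of the level over that in PFFs (at 0), on RPM (circles), TMM values (squares) and DESeq2 size factors (triangles). PEBs are highest for miR-10a and miR-196a is far above PFFs in ES-like cells and PEBs under each of them, whereas miR-10b in PEBs lies above PFFs on RPM only.

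The study called a miRNA high in a cell type when its level was more than 2-fold that in each other cell type, with BLs as the mean of both libraries. Applied to RPM, which are not the normalized values that the study used, this rule placed 3 of the 6 members in a list. Of the 327 miRNAs with a read, it placed 61 in the list of BLs, 41 in that of ES-like cells, 24 in that of PEBs and 26 in that of PFFs. A miRNA can be in only 1 of these lists, so 3 of 6 was near the share of all miRNAs. ssc-miR-10b was high in BLs, where 18.7% of the 327 miRNAs with a read passed, and ssc-miR-10a-5p and ssc-miR-10a-3p were high in PEBs, where 7.34% passed. For ssc-miR-10a-3p the level in PEBs was 2.83 times that in ES-like cells, the next cell type. ssc-miR-196a was highest in ES-like cells, where 12.5% passed, but did not pass at 1.68 times PEBs. ssc-miR-196b-5p was highest in PFFs, where 7.95% passed, but did not pass at 1.12 times ES-like cells. On TMM values the same 3 calls were made, against 18.7% of miRNAs in BLs and 7.95% in PEBs, and ssc-miR-196b-5p was added in PFFs at 2.88 times ES-like cells, where 14.7% passed. None of the members was more than 2-fold higher in both pluripotent cell types, BLs and ES-like cells, over both differentiated ones (6.73% of miRNAs on RPM) or the reverse (3.98%). These are descriptions with no test, and they share their libraries.

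The 2 BL libraries were compared with the 3 cultured libraries by edgeR's quasi-likelihood test across 295 miRNAs, those above 5 reads in 2 or more libraries, with Benjamini-Hochberg adjustment. All 6 members passed this filter, of which both ssc-miR-196b arms and ssc-miR-10a-3p did so through the cultured libraries only. With so few reads in BLs, these 3 could be tested only because they were higher in cultured libraries. Their p-values are therefore given as descriptions and support no difference. The test called 35 miRNAs at an adjusted p under 0.05, 11.9% of those tested, with 6.44% higher and 5.42% lower in BLs, and the median log2 fold change of all was -1.30. Before adjustment 38.6% had a p under 0.05, among them ssc-miR-10b. Both BL libraries lay below all cultured libraries on RPM for ssc-miR-196b-5p and ssc-miR-10a-3p, as they did for 40.3% of the miRNAs tested, although the level of 3 reads in BL_1 (26.4 RPM) is above that of ssc-miR-10a-3p in PFFs. None of the other 3 members was called. Of those admitted through the cultured libraries, ssc-miR-196b-5p, with 0 and 2 reads in BLs, had an adjusted p of 0.0254 from edgeR, and its fitted fold change depends on the prior count and is not given. ssc-miR-10b was higher in BLs by 2.26 on the log2 scale (standard error 0.80, edgeR adjusted p = 0.100, higher in 2 of 2 BL libraries), which did not pass. It passed with limma on log2(RPM + 1) (adjusted p = 0.0438), where 24.1% of miRNAs were called (8.47% higher and 15.6% lower in BLs). It also passed with DESeq2 (adjusted p = 0.00683), where 33.9% were called (12.2% higher and 21.7% lower), and in an edgeR fit with the 4 cell types apart (adjusted p = 2.49e-06), where 57.3% were called (23.4% higher and 33.9% lower) and the spread came from the BL replicates alone. Its adjusted p ranged from 2.49e-06 to 0.336 over 13 alternatives, without a change of direction. ssc-miR-10a-3p had an adjusted p of 0.0605 from edgeR, and from 6.97e-05 to 0.285 over the alternatives. The fitted log2 fold change of ssc-miR-196a was -2.75 (standard error 1.59, edgeR adjusted p = 0.231) and that of ssc-miR-10a-5p -0.85 (0.88, edgeR adjusted p = 0.466). The latter turned to 0.21 without BL_1 and to 0.05 without PEBs. ssc-miR-196b-3p had an edgeR adjusted p of 0.395. The number of miRNAs called was 2 without BL_1, 1 without BL_2, 1 without PEBs and 116 without PFFs, while it was 25 without ES-like cells, nearer to the 35 of all libraries. Among the 116 called without PFFs, against 35 with all libraries, were ssc-miR-10b (edgeR adjusted p = 0.00420) and ssc-miR-196a (0.0173). For the members admitted through the cultured libraries, the adjusted p of ssc-miR-196b-5p was 0.145 without BL_1, 0.164 without BL_2 and 0.0558 without PEBs, and that of ssc-miR-10a-3p was 0.000406 without PFFs.

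**Figure D4:**
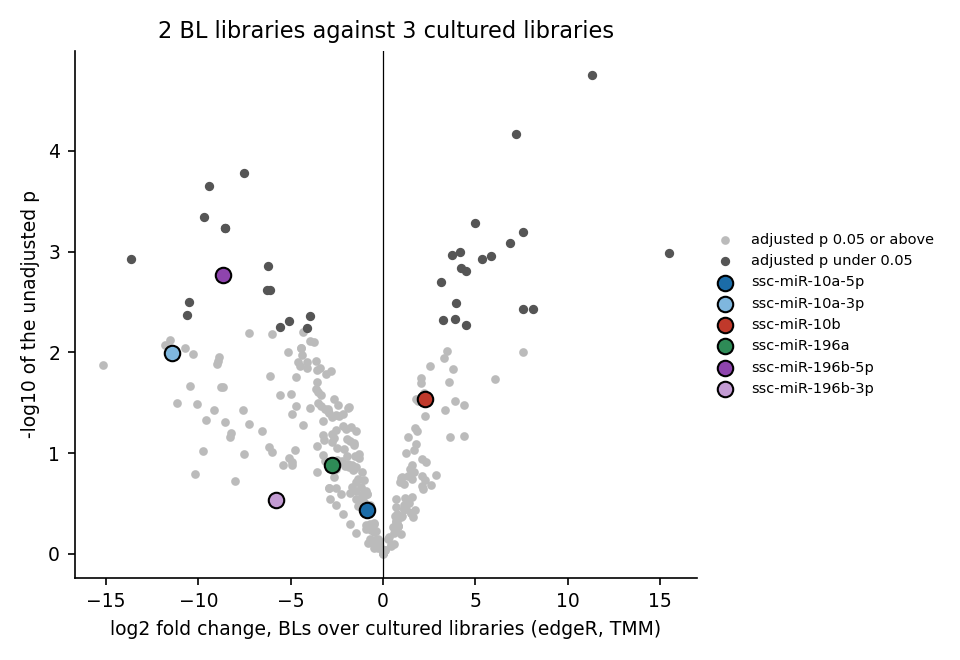
Log2 fold change of BLs over the cultured libraries against -log10 of the unadjusted p from edgeR's quasi-likelihood test for 295 miRNAs (grey points, dark where the adjusted p was under 0.05), with the 6 members coloured. Of the members, ssc-miR-196b-5p has an adjusted p under 0.05, but it entered the test through the cultured libraries only, and ssc-miR-10b is the only one to the right of 0, at 2.26.

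The study also set pluripotent cells (BLs and ES-like cells) against differentiated cells (PEBs and PFFs). With these 3 and 2 libraries, edgeR's quasi-likelihood test called 0 of 295 miRNAs, 0% of those tested, while 30 (10.2%) had an unadjusted p under 0.05 and DESeq2 called 16 (5.42%). At this spread the test also recovered none of the large changes set in simulated counts, so that the count of 0 does not show a lack of differences. Without ES-like cells this comparison is the same fit as BLs against the cultured libraries without ES-like cells. In that fit edgeR called 25. These include ssc-miR-196b-5p (adjusted p = 0.0430), which then passed the filter through PEBs and PFFs only, so that this supports no difference. With all 5 libraries no member had an unadjusted p under 0.05. The fitted log2 fold change of ssc-miR-10b was 1.36 (standard error 1.31, edgeR adjusted p = 0.740), with BLs above and ES-like cells below both differentiated libraries. That of ssc-miR-196a was -0.18 (1.78, edgeR adjusted p = 0.983), and its levels in ES-like cells and PEBs lay on opposite sides of this comparison above those in BLs and PFFs. Its direction turned in 7 of 12 alternatives. The fitted log2 fold change of ssc-miR-10a-5p was -1.10 (0.97, edgeR adjusted p = 0.704), and it turned to 0.21 without PEBs. Both comparisons use the same 5 libraries. In neither do the labels name repeated cultures within a group of different cell types, so the p-values measure the spread between these libraries, differences between cell types included.

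The miRNAs whose levels followed each member most closely over the 5 libraries were found by Pearson's r on log2(RPM + 1) among the other miRNAs with at least 10 reads in at least 2 libraries. These values are descriptions over 5 libraries that share depth and composition. ssc-miR-10b was most like ssc-miR-149 (r = 0.998), which stood at 123 and 166 RPM in BLs, 39.7 in PFFs, 45.4 in PEBs and 27.8 in ES-like cells. ssc-miR-10a-5p was most like ssc-miR-30a-5p (r = 0.987), with 2558 and 3654 RPM in BLs, 1303 in PFFs, 15023 in PEBs and 7770 in ES-like cells. The most alike of ssc-miR-196a were ssc-miR-194a (r = 0.995), ssc-miR-138 (r = 0.991) and ssc-miR-122 (r = 0.987), each with its highest level in ES-like cells and its lowest in PFFs. For ssc-miR-196b-5p it was ssc-miR-545-3p (r = 0.997), with at most 6.59 RPM, and for ssc-miR-10a-3p it was ssc-miR-218b (r = 0.987). Among the members themselves, ssc-miR-10a-5p and ssc-miR-10b had an r of -0.23, and ssc-miR-196a and ssc-miR-196b-5p one of 0.17. Across the families, ssc-miR-10b and ssc-miR-196b-5p had an r of -0.98, and ssc-miR-10a-5p and ssc-miR-196a one of 0.86. On TMM values these last 2 were -0.81 and 0.60. ssc-miR-196b-5p had 0 and 2 reads in BL_1 and BL_2, and ssc-miR-10a-3p had 0 in both. ssc-miR-545-3p also stood at 0 RPM in both. Since 3 reads in BL_1 are 26.4 RPM, each r of these miRNAs rests in part on values at the counting limit. Which miRNAs were most alike depended on the normalization, since on TMM values 1 of the first 3 was shared for ssc-miR-10a-5p and 1 for ssc-miR-10b, against 2 for ssc-miR-10a-3p, 2 for ssc-miR-196b-5p and 3 for ssc-miR-196a.

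ssc-miR-99a, ssc-miR-99b and ssc-miR-100 are often grouped with miR-10 for their similar 5′ ends, and their genes lie outside the Hox clusters. None of the 3 shared the high level of miR-10b in BLs. ssc-miR-100 stood at 2708 and 2567 RPM in BLs, 23148 in PFFs, 3576 in PEBs and 4995 in ES-like cells. ssc-miR-99a stood at 695 and 615 RPM in BLs and from 2003 to 3730 in the cultured libraries, and ssc-miR-99b at 2330 and 1506 in BLs and from 2925 to 8083 in the cultured libraries. All 3 had fitted log2 fold changes below 0 in BLs against the cultured libraries, from -2.48 to -1.48, and none passed (edgeR's quasi-likelihood test, adjusted p from 0.106 to 0.219).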

How the data were processed

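Per the paper's methods and the submitters' processing notes, the authors removed adapters with Cutadapt 1.10, discarded reads that were too short or had no adapter, aligned the rest with Bowtie 1.1.1 to Sscrofa10.2 and counted reads on miRBase miRNAs with miRDeep2. The deposited table holds raw counts per mature miRNA and precursor, without normalization, and how reads of several precursors were assigned is not given in the sources used here. The deposited table of predicted loci was not used here, because no table of its genome build placed the members' hairpins.

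Libraries were assigned by column names that match the submitters' titles, although a read summary in the study's supplement lists the totals of ES-like cells and PFFs exchanged. Counts were summed over precursor rows and divided by library totals (113743 to 27071931 reads). Members, gene lists and tests were chosen with earlier results of these data known. Both comparisons used edgeR 4.0.16 (quasi-likelihood, TMM, Benjamini-Hochberg, threshold 0.05), run under R 4.3.3. DESeq2 1.42.0 and limma 3.58.1 were the other tools, and the edgeR fits were run on counts simulated with known changes. They recovered nearly all large changes at a low spread between libraries, but at the spread of these data few of them for BLs against cultured libraries and none for pluripotent against differentiated libraries. Shares and levels have 95% Wilson intervals and ratios of libraries exact binomial ones, for counting error only. Beside the members, the text names the 3 miRNAs of highest Pearson's r with each member (the first, or all for miR-196a) and the miR-99 and miR-100 family. Of the marker lists, that of blood cells summed to 0 and 15.8 RPM in BLs, 1.66 in PFFs, 84.5 in PEBs and 49.7 in ES-like cells, and that of skeletal muscle to 1073 and 2445 in BLs, 1019 in PFFs, 551 in PEBs and 191 in ES-like cells. Alternatives were other normalizations, tests, filters, thresholds and pseudocounts, the largest precursor row in place of the sum, and the omission of single libraries. Sequences of the miRNAs were not used here. Intervals and permutations were computed with scipy 1.17.1 and statsmodels 0.14.6 under Python 3.11.15.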

Additional observations from a re-analysis of the deposited data

How the results depend on the processing

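No paired analysis was possible because no cell type but BLs has a second library. For BLs against the cultured libraries, 35 miRNAs were called, against 100 with DESeq2, 71 with limma and 169 with the 4 cell types apart, and from 1 to 116 when single libraries were left out, where a lone library is assumed to vary like the others. For pluripotent against differentiated libraries, edgeR called 0, DESeq2 16, and from 0 to 25 when single libraries were left out. The 25 came without ES-like cells, where both comparisons are the same fit. The fitted direction of ssc-miR-10a-5p turned to 0.21 without BL_1 and 0.05 without PEBs in the former (leave-one-out range -1.21 to 0.21) and to 0.21 without PEBs in the latter (-1.27 to 0.21). In the latter, ssc-miR-196a turned from -0.18 to 0.36 with DESeq2's size factors, 0.31 with RPM, 0.36 with DESeq2 and 1.23 with limma, and to between 0.60 and 4.63 without BL_1, BL_2 or PEBs (leave-one-out range -2.26 to 4.63). ssc-miR-196b-5p turned to 0.19 without PFFs (-8.88 to 0.19, where the low end, without ES-like cells, depends on the prior count and is neither a fold nor a bound), and ssc-miR-196b-3p to 0.48 with RPM, 0.24 with DESeq2 and 0.31 without BL_2 (-1.69 to 0.31). None of the turned values passed the test, and the cause was not tested. Without ES-like cells the adjusted p of ssc-miR-196b-5p was 0.0430 in the latter, but it then entered the test through PEBs and PFFs only. The fit without ES-like cells is counted in both comparisons here. Of the 139 fitted values of the members under an alternative that have an adjusted p, 112 kept their direction and side of the threshold. The other 3, of ssc-miR-10a-3p and both ssc-miR-196b arms with DESeq2 in the latter, have none, and that of ssc-miR-196b-3p is the turned value above. The 3 calls of the 2-fold rule were kept on both other normalizations, where ssc-miR-196b-5p in PFFs was added, and 0 were left at 4-fold. The log2 ratio of miR-10a to miR-10b changed in PEBs from 0.53 to 0.54 when both arms were summed, and the BL difference ranged from -3.80 to -2.61 when libraries were left out. With the largest precursor row for both, the log2 ratio of miR-196a to miR-196b was -5.01 in PFFs, 3.60 in PEBs and 2.42 in ES-like cells, against -5.73, 2.99 and 1.76. Against RPM with PFFs at 0, TMM moved BL_1, BL_2, ES-like cells and PEBs by -0.82, -0.58, -1.37 and -0.80 and DESeq2's size factors by -0.30, -0.43, -1.02 and -0.99. The depth of BL_1 limits what its counts of 0 can show.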
